A study of Mus musculus with 6 samples.

Results

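The 34 genes described here are immediate early genes, transcripts that cells switch on soon after a stimulus. They were taken by gene symbol from a deposited table of transcript levels, in which all 34 were found among 22869 genes with a symbol, and 29 of them had a mean of at least 1 FPKM and were tested among 11642 genes. FPKM is the number of sequenced fragments of a transcript, corrected for transcript length and for the total of mapped fragments in the library. The table holds 6 RNA sequencing libraries, made from pituitaries of untreated females of a CD1 x C57BL/6 hybrid strain that were 6 to 8 weeks old. Flow sorting had yielded somatotropes, which secrete growth hormone, and lactotropes, which secrete prolactin, and each cell type has 3 libraries numbered as biological replicates 1 to 3. Values below are listed in that order. Neither the sort marker nor the number of animals behind a library is stated in the sources used, and the p-values reflect only how these libraries vary, which may be technical in part.

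Immediate early genes respond to growth factors, hormones, calcium and stress without needing new protein synthesis. Kinase cascades of the MAP kinase, cyclic AMP and calcium pathways act on factors already present, among them CREB and the serum response factor with its ternary complex partners, and these bind the promoters of the genes. Many of the products are transcription factors (Fos, Jun, Egr, Nr4a and Klf proteins) and others shut the signal down again (the Dusp phosphatases and the RNA-binding protein of Zfp36). Their transcripts are short-lived, and tissue dissociation and sorting are known to induce many of them. In the pituitary, hypothalamic releasing hormones acting through cyclic AMP and calcium are among their known inducers.

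Most immediate early transcripts were higher in lactotropes than in somatotropes of the same replicate number. Of the 29 tested members, 19 (65.5%) were higher in the lactotrope library of all 3 pairs, where the same held for 11.2% of all genes tested. None was higher in somatotropes in all 3 pairs, against 22.9% of all genes. The lead genes were Fos, whose mean was 252 ± 255 FPKM (SD, n = 3) in lactotropes against 101 ± 152 FPKM in somatotropes, Dusp1, with 265 ± 202 FPKM and 94.6 ± 119 FPKM, and Zfp36, with 108 ± 84.6 FPKM and 35.2 ± 46.2 FPKM. The SDs were as large as the means or nearly so, and the libraries numbered replicate 3 were the highest of both cell types for all 3 genes. By pair, 25, 28 and 22 of the 29 members were higher in the lactotrope library, against 49.6%, 42.7% and 33.5% of all genes.

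Differences are given as somatotrope minus lactotrope on the log2(FPKM + 1) scale, which understates the change of low genes. The median difference of the 29 tested members was -0.93, beside 0.18 over all genes tested, and by pair it was -0.98, -1.41 and -0.41, beside 0.00254, 0.12 and 0.36. With a library left out the members' median reached -1.45 without somatotrope 3 and -0.55 without lactotrope 3. No member passed limma's test over all genes at an adjusted p of 0.05 (0 of 29, background 0%). At an unadjusted p under 0.05, limma found 2 members, Dusp1 and Zfp36, both higher in lactotropes (background 0.455%), and none higher in somatotropes (background 0.507%). With the replicate number as a block, which compares the cell types within pairs, limma found 14 members at an unadjusted p under 0.05, all higher in lactotropes (background 3.75%, and 7.17% for higher in somatotropes). At an adjusted p of 0.05 the blocked fit called 0 members and 0 genes. The smallest blocked adjusted p among members was 0.23, that of Dusp1. In a blocked limma fit that also weighted the libraries, Fos (adjusted p = 0.0411) and Dusp1 (adjusted p = 0.0261) passed, 2 of 29 members, as did 43 of 11642 genes. That fit weighted pair 3, where the members' median difference was smallest, at 0.47, and pairs 1 and 2 at 1.43 and 1.49.

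The count of members higher in lactotropes in all 3 pairs was 20 under median-ratio scaling (15.6% of all genes) and 18 under quantile normalization (16.4%). Over 2 pairs, where the count cannot be lower than over 3, it was 22 in pairs 2 and 3 (17.7% of all genes), 19 in pairs 1 and 3 (18.7%) and 24 in pairs 1 and 2 (24%). Over all 34 symbols with no filter on level it was 20, against 6.88% of the 22869 genes. Prl alone made up 46.6%, 12.1% and 53.0% of the FPKM sum in lactotropes 1 to 3, and after rescaling each library to its sum without Gh and Prl the count was again 19 (11.7%).

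**Figure D1:**
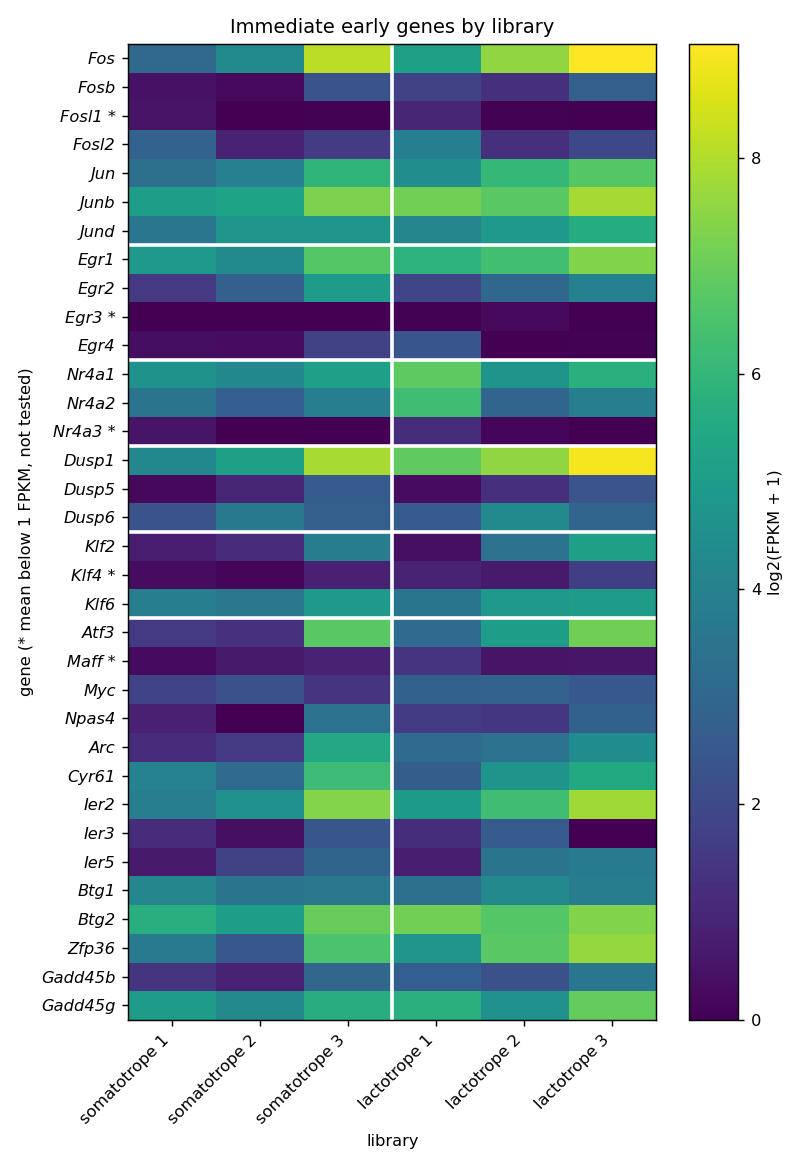
Colour gives log2(FPKM + 1) of the 34 immediate early genes (rows, white lines between families) in the 6 libraries (columns, white line between cell types), and an asterisk marks the 5 genes with a mean below 1 FPKM. Fos and Dusp1 are brightest in lactotrope 3, at 533 and 495 FPKM.

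The libraries differed in other ways. Gh was highest in the somatotrope libraries (84909, 19384 and 43379 FPKM against 3954, 6856 and 7623) and Prl in the lactotrope libraries, although Prl in lactotrope 2 (25171 FPKM) was close to that in somatotrope 3 (24481 FPKM), and both hormones were present in all 6. Lactotrope 3 listed 14.9% of tested genes at 0, against 0.23% to 2.95% in the others, so a 0 is given below as listed. Fragment totals had to be estimated. Low values of olfactory receptor genes, enough in number for an estimate only in replicate 1 of each cell type, stood there on whole fragments at totals of about 29200000 for somatotrope 1 and 17600000 for lactotrope 1. At that depth the single-exon gene Jun rested on 853 and 1165 fragments and Ier5 on 55 and 39. The other 4 libraries had too few such values to be assessed, and their depth is unknown. Markers of macrophages and other leukocytes lay in the same direction as the members. Of the 15, 14 were higher in lactotropes in all 3 pairs (11.2% of all genes tested). Their summed level, mostly Cd74 and H2-Ab1, was 364, 8863 and 4249 FPKM for somatotropes and 1077, 17396 and 6332 FPKM for lactotropes, and none of the 15 was listed at 0 in any library. Stem cell and folliculostellate markers lay the other way, with 4 of 5 tested higher in somatotropes in all 3 pairs (22.9% of all genes). Markers of endothelial cells were near 0, with a summed level of at most 3.31 FPKM in any library. In bulk libraries, fewer cells of a type and less RNA per cell cannot be told apart, and the part of leukocytes in the members' levels was not tested.

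**Figure D2:**
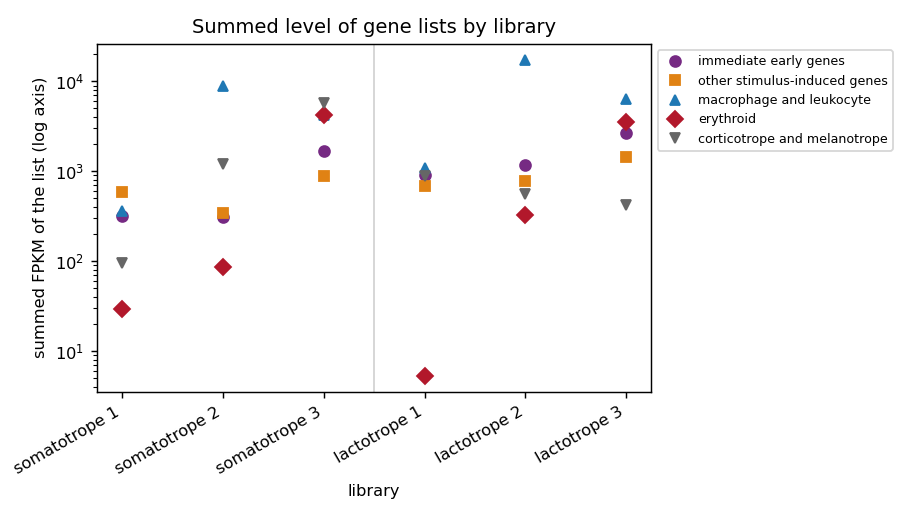
Summed FPKM (log axis) of the 34 immediate early genes and of 4 other gene lists in each of the 6 libraries, with a grey line between the cell types. The immediate early sum is highest in lactotrope 3 (2683 FPKM) and somatotrope 3 (1675 FPKM), where erythroid markers are also highest, while leukocyte markers are highest in lactotrope 2 (in somatotrope 3 their symbol lies under the erythroid one).

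Promoters are printed for 5 members on which the results turn: Fos, Dusp1 and Zfp36, which led the difference between the cell types, Atf3, which ranged from 1.48 to 137 FPKM, and Nr4a1, which followed another order. The sequences are from RefSeq on GRCm38.p6, whereas the deposited table is on mm9, and 28 of the 34 members had a window. Each is the 250 bases before the transcription start, with letters TGACG, the core of the cyclic AMP response element bound by CREB, in capitals on either strand (CGTCA on the other strand), as are the full palindrome TGACGTCA and the CArG box where present. The capitals in Zfp36 mark a CArG box, and its window held no TGACG. Fos lies at chr12:85473640-85473889 on the plus strand, Dusp1 at chr17:26508473-26508722 on the minus strand, Zfp36 at chr7:28379229-28379478 on the minus strand, Atf3 at chr1:191183334-191183583 on the minus strand and Nr4a1 at chr15:101266596-101266845 on the plus strand.
Fos: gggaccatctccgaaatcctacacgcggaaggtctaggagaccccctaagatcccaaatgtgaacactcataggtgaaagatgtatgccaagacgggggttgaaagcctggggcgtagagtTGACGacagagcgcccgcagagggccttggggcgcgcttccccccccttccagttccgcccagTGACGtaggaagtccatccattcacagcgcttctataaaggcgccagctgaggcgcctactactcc
Dusp1: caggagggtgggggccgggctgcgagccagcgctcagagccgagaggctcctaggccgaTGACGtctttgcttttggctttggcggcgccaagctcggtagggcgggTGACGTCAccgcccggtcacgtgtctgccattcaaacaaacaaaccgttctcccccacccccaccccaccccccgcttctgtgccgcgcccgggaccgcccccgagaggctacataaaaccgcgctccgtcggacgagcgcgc
Zfp36: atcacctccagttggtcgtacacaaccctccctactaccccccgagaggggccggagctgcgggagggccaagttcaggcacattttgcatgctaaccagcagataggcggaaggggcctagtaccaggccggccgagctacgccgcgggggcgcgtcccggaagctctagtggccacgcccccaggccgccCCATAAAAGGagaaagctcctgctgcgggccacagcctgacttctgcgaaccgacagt
Atf3: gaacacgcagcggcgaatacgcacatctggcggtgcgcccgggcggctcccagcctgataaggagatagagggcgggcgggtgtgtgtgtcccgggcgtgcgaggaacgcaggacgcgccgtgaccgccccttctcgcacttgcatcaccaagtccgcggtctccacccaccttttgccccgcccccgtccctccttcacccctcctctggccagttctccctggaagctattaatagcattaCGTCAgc
Nr4a1: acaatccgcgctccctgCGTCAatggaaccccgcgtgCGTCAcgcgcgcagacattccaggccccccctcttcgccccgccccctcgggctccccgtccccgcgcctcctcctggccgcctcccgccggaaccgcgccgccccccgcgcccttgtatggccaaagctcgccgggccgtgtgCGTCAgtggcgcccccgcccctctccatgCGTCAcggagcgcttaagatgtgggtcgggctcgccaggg

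Counted on both strands over windows of 300 bases, 250 before and 50 after the start, TGACG was found in 18 of the 28 members with a window (64.3%) and in 23% of 27025 genes. The full TGACGTCA, which contains TGACG, was found in 3 members, Dusp1, Btg2 and Maff (10.7%, against 2.03% of genes). The CArG box bound by the serum response factor was found in Dusp5, Egr2 and Zfp36 (10.7%, against 1.81%). The AP-1 letters TGANTCA were in none of the 28 windows, against 8.97% of genes. The Egr letters GCGNGGGCG were in 10 members (35.7%, against 6.27%). The GC box GGGCGG, which can overlap the Egr letters, was in 23 members (82.1%, against 38.2%). Dusp1 held TGACGTCA between 143 and 136 bases before its start, Fos held TGACG from 129 and from 66 bases before, and Nr4a1 held CGTCA at 4 places. These are matches of letters and not sites of binding. The 27025 genes were all those with a window, not limited to the 11642 genes tested, which are the background elsewhere. The base composition of the windows was not compared. Bases outside the windows were not searched, and Fosl1, Egr1, Egr3, Myc, Arc and Ier2 had no window.

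Fos and Jun proteins pair to form the transcription factor AP-1. All 6 tested members of the family were higher in lactotropes in all 3 pairs, with a median difference of -1.12, and the sign of all 6 was the same under median-ratio scaling, quantile normalization and rescaling without the hormones. Fos (mm9 chr12:86814851-86818219) was at 7.83, 19.2 and 276 FPKM in the somatotrope libraries and 34.6, 187 and 533 FPKM in the lactotrope libraries. Within pairs the lactotrope level was 4.42, 9.74 and 1.93 times the somatotrope level, and somatotrope 3 lay above lactotropes 1 and 2, so the groups overlapped. The difference was -2.06 (SE 1.15), with a blocked p of 0.000811 that became 0.234 after limma's adjustment over all genes. In rank, Fos was gene 5923 of 22869 by level in somatotrope 1, 1597 in somatotrope 2 and 32 in somatotrope 3, and 1319, 55 and 21 in the lactotropes. Ranks do not depend on the scaling of a library, and they place Fos among the most abundant transcripts of both replicate 3 libraries.

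Jun, the founding Jun protein, was at 9.15, 14.6 and 59.6 FPKM in the somatotrope libraries and 20.7, 63.9 and 102 FPKM in the lactotrope libraries, a difference of -1.31 (SE 0.76). Junb was at 31.9, 37.6 and 155 FPKM in the somatotrope libraries and 139.7, 105 and 231 FPKM in the lactotrope libraries, a difference of -1.37 (SE 0.67). Both were higher in lactotropes within each pair and highest in lactotrope 3, with blocked p-values of 0.0032 for Jun and 0.0029 for Junb (adjusted 0.266 and 0.259 by limma). Jund, which is less inducible than Jun and Junb, varied least in the family and was at 10.8, 25.9 and 26.0 FPKM in the somatotrope libraries and 16.3, 28.2 and 48.2 FPKM in the lactotrope libraries, a difference of -0.51 (SE 0.61). Fosb was the lower relative of Fos, at 0.353, 0.16 and 4.11 FPKM in the somatotrope libraries and 2.48, 1.41 and 5.66 FPKM in the lactotrope libraries. As for Fos, replicate 3 was highest in both cell types, and the difference was -0.93 (SE 0.78). With 1 library left out the difference of Fos ranged from -3.52 (without somatotrope 3) to -1.03 (without somatotrope 1), so its size depended on single libraries.

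Fosl2, a Fos relative that acts later in the response, had another order. It was at 6.26, 0.841 and 2.04 FPKM in the somatotrope libraries and 13.9, 1.42 and 2.87 FPKM in the lactotrope libraries, highest in replicate 1 of both cell types. The lactotrope level was 2.22, 1.69 and 1.41 times the somatotrope level in pairs 1 to 3, a difference of -0.59 (SE 0.85). Without lactotrope 1 the difference was 0.17, in a fit that kept somatotrope 1, the highest of the somatotropes. Fosl1 was below the filter, with at most 0.965 FPKM in any library.

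Egr genes encode zinc finger transcription factors. Egr1 (mm9 chr18:35020861-35024610) was at 29.0, 19.1 and 100.3 FPKM in the somatotrope libraries and 57.6, 79.4 and 162 FPKM in the lactotrope libraries. It was higher in lactotropes within each pair, 1.99, 4.15 and 1.61 times the somatotrope level, but somatotrope 3 lay above lactotropes 1 and 2. The difference was -1.22 (SE 0.68), with a blocked p of 0.00465 (adjusted 0.294 by limma). Egr2, which is also known for its role in myelinating cells, was at 1.87, 5.93 and 31.2 FPKM in the somatotrope libraries and 2.75, 7.28 and 14.8 FPKM in the lactotrope libraries. It was highest in somatotrope 3, and its difference of 0.13 (SE 0.88) was -0.03 under median-ratio scaling. Egr4 was at 0.261, 0.22 and 2.39 FPKM in the somatotrope libraries and 4.37, a listed 0 and 0.0379 FPKM in the lactotrope libraries, so only lactotrope 1 and somatotrope 3 lay above 1 FPKM, and its difference of -0.03 (SE 0.77) was 0.19 under median-ratio scaling and 0.09 after rescaling without the hormones. Egr3 was below the filter, at most 0.171 FPKM.

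Nr4a genes encode orphan nuclear receptors, and Nr4a1 (Nur77) is known in the pituitary for activating Pomc. Nr4a1 (mm9 chr15:101097277-101105225) was at 24.0, 18.0 and 33.7 FPKM in the somatotrope libraries and 113, 24.9 and 53.4 FPKM in the lactotrope libraries. The high library was lactotrope 1, and lactotrope 2 lay below somatotrope 3. Nr4a2 (Nurr1) was at 10.3, 5.50 and 13.6 FPKM in the somatotrope libraries and 76.0, 6.77 and 13.7 FPKM in the lactotrope libraries, again with lactotrope 1 far above the other 5 libraries. The lactotrope level was 4.69, 1.39 and 1.59 times the somatotrope level for Nr4a1 and 7.37, 1.23 and 1.01 times for Nr4a2 in pairs 1 to 3. The differences were -1.10 (SE 0.63) and -1.01 (SE 0.79), and without lactotrope 1 they were -0.56 and -0.06. Nr4a3 was below the filter and also highest in lactotrope 1, at 1.26 FPKM. Pomc itself was at 93.6, 1209 and 5758 FPKM in the somatotrope libraries and 853, 553 and 425 FPKM in the lactotrope libraries. Like the 2 tested Nr4a genes, it was highest in somatotrope 3 among the somatotropes and in lactotrope 1 among the lactotropes, but its lowest libraries were others.

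Dusp genes encode phosphatases that switch MAP kinases off. Dusp1 (mm9 chr17:26642536-26645417), whose product acts in the nucleus on several MAP kinases, was at 17.9, 34.7 and 231 FPKM in the somatotrope libraries and 113, 186 and 495 FPKM in the lactotrope libraries. It was the member with the smallest p in limma with and without the block, and the only one of the 29 tested members at least 2-fold higher in lactotropes in all 3 pairs (6.31, 5.37 and 2.14 times), where 1.68% of all genes were. Somatotrope 3 nevertheless lay above lactotropes 1 and 2. The difference was -2.03 (SE 0.86), with a p of 0.0342 without the block and 0.000282 with it (adjusted 0.23 by limma with the block). With 1 library left out it ranged from -3.08 (without somatotrope 3) to -1.27 (without somatotrope 1). Dusp5, a nuclear phosphatase specific for ERK, was at 0.148, 0.954 and 5.25 FPKM in the somatotrope libraries and 0.245, 1.39 and 4.24 FPKM in the lactotrope libraries, with replicate 3 highest in both cell types and no shared direction over the pairs (difference -0.05 (SE 0.82)). Dusp6, its cytoplasmic counterpart, was at 4.01, 11.6 and 5.72 FPKM in the somatotrope libraries and 5.19, 18.5 and 6.80 FPKM in the lactotrope libraries. It was highest in replicate 2 of both cell types and higher in lactotropes within each pair (1.29, 1.60 and 1.19 times). Its difference was -0.38 (SE 0.69), and it was 0.11 without lactotrope 2, in a fit that kept somatotrope 2.

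**Figure D3:**
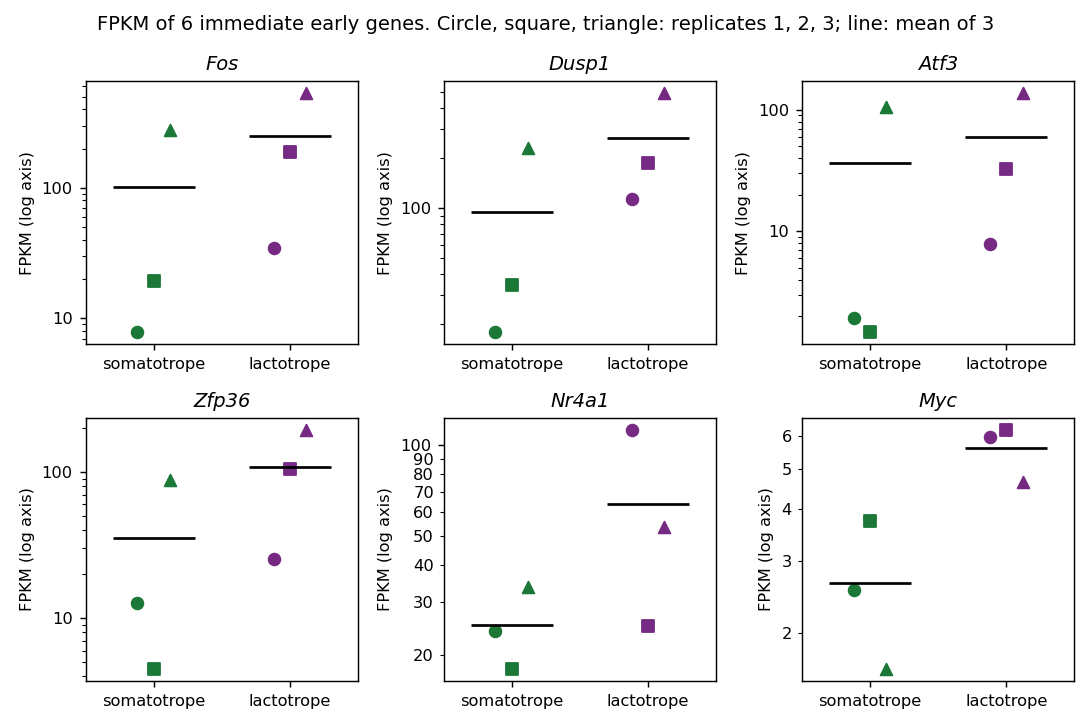
FPKM (log axis) of 6 immediate early genes in each library, with cell types side by side, the replicate number shown by the shape of the symbol and a line at the mean of 3 libraries. In Fos, Dusp1, Atf3 and Zfp36 the triangle of replicate 3 is the highest of both cell types, in Nr4a1 the circle of lactotrope 1 is highest, and in Myc all 3 lactotropes lie above all 3 somatotropes.

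Klf genes encode Krüppel-like zinc finger factors. Klf2, known from endothelial cells and lymphocytes, was at 0.621, 1.09 and 13.2 FPKM in the somatotrope libraries and 0.281, 9.32 and 34.3 FPKM in the lactotrope libraries, which was higher in lactotropes in pairs 2 and 3 and not in pair 1. Klf6 was at 13.7, 11.2 and 28.1 FPKM in the somatotrope libraries and 10.4, 27.5 and 31.4 FPKM in the lactotrope libraries, with the same pattern over the pairs. The differences were -1.09 (SE 1.14) and -0.34 (SE 0.63), and neither passed limma's test with the block (adjusted p of 0.477 and 0.73). Klf4, below the filter, was at 0.225, 0.0874 and 0.782 FPKM in the somatotrope libraries and 0.857, 0.571 and 2.21 FPKM in the lactotrope libraries, and was higher in lactotropes in each pair.

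Among the other transcription factors, Atf3, a stress-induced bZIP factor, had a wide range between libraries of the same cell type. It was at 1.92, 1.48 and 105 FPKM in the somatotrope libraries and 7.89, 32.7 and 137 FPKM in the lactotrope libraries. Somatotrope 3 held 54.8 times the level of somatotrope 1 and 71.3 times that of somatotrope 2, while lactotrope 3 held 17.4 and 4.20 times the level of lactotropes 1 and 2. The difference between the cell types was -1.92 (SE 1.27), with a blocked p of 0.00785 (adjusted 0.335 by limma), and it was -3.69 without somatotrope 3 and -0.92 without lactotrope 3. Myc, a growth-promoting factor that responds later than Fos, was the single member whose groups did not overlap (1 of 29, background 1.15%, and 2.51% for the opposite order). It was at 2.55, 3.75 and 1.64 FPKM in the somatotrope libraries and 5.98, 6.22 and 4.64 FPKM in the lactotrope libraries, a difference of -0.89 (SE 0.67) and a blocked p of 0.0383, and its level was lowest in replicate 3 of both cell types. Maff, a small Maf factor, was below the filter at a highest level of 1.58 FPKM in lactotrope 1.

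Npas4 and Arc are known from neurons, where calcium entry induces them. Arc was at 1.20, 1.94 and 43.8 FPKM in the somatotrope libraries and 7.96, 9.35 and 20.4 FPKM in the lactotrope libraries, and Npas4 at 0.782, 0.0132 and 9.36 FPKM in the somatotrope libraries and 2.01, 1.69 and 6.08 FPKM in the lactotrope libraries. Both were higher in lactotropes in pairs 1 and 2 and highest in somatotrope 3, which also had the highest Pomc. Their differences were -0.93 (SE 0.98) for Arc and -0.54 (SE 0.89) for Npas4, and without somatotrope 2 that of Npas4 was 0.16. Cyr61, a secreted matrix protein gene, was highest in somatotrope 3 too, at 15.2, 7.88 and 73.1 FPKM in the somatotrope libraries and 5.40, 24.7 and 44.5 FPKM in the lactotrope libraries, and its difference of 0.17 (SE 0.86) was -0.06 under median-ratio scaling. With Egr2 and Dusp5, 5 members were highest in somatotrope 3 (17.2%, background 5.2%). Lactotrope 1 was the highest library of 4 members, Fosl2, Egr4, Nr4a1 and Nr4a2 (background 32.9%), and lactotrope 2 of 4, Dusp6, Myc, Ier3 and Btg1 (background 7.65%).

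Of the genes that act on RNA stability, growth arrest and other processes, Zfp36 showed the largest difference of the tested members. Fos followed closely at -2.06, and at a pseudocount of 0.1 FPKM Atf3 led (-2.25, against -2.22 for Zfp36). Zfp36 encodes tristetraprolin, which binds AU-rich elements and speeds the decay of many short-lived transcripts. Zfp36 (mm9 chr7:29161803-29164247) was at 12.7, 4.49 and 88.3 FPKM in the somatotrope libraries and 25.2, 105 and 194 FPKM in the lactotrope libraries, so the lactotrope level was 1.99, 23.4 and 2.20 times the somatotrope level in pairs 1 to 3. The difference was -2.12 (SE 0.95), with a p of 0.0439 without the block and 0.00611 with it (adjusted 0.323 by limma with the block). It was -3.24 without somatotrope 3, and without somatotrope 2 it was -1.23. Btg2, an antiproliferative gene and a p53 target, was at 51.6, 31.6 and 122 FPKM in the somatotrope libraries and 139, 101 and 162 FPKM in the lactotrope libraries, a difference of -1.16 (SE 0.61) with the same sign in each pair. Its relative Btg1 was at 16.6, 10.2 and 11.4 FPKM in the somatotrope libraries and 9.10, 18.3 and 13.5 FPKM in the lactotrope libraries and had no shared direction, with a difference of -0.07 (SE 0.58).

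Ier2 was at 13.7, 23.2 and 165 FPKM in the somatotrope libraries and 29.4, 76.4 and 218 FPKM in the lactotrope libraries, which put the 6 libraries in the same order as Fos and Dusp1 did, with a difference of -1.05 (SE 0.90). Ier5 was at 0.575, 2.35 and 6.49 FPKM in the somatotrope libraries and 0.676, 10.3 and 12.1 FPKM in the lactotrope libraries, and Ier3, a regulator of cell survival, at 1.22, 0.304 and 4.36 FPKM in the somatotrope libraries and 1.25, 5.19 and 0.0093 FPKM in the lactotrope libraries. The difference of Ier5 was -0.89 (SE 0.91), and that of Ier3, near 0 in lactotrope 3, was 0.05 (SE 0.82) but -0.24 under quantile normalization. Gadd45b was at 1.59, 0.843 and 6.97 FPKM in the somatotrope libraries and 5.51, 3.72 and 10.9 FPKM in the lactotrope libraries and Gadd45g at 31.0, 18.2 and 48.5 FPKM in the somatotrope libraries and 53.5, 22.8 and 119 FPKM in the lactotrope libraries. These stress-induced genes were higher in lactotropes in each pair, with differences of -1.09 (SE 0.77) and -0.78 (SE 0.67) and blocked p-values of 0.0193 and 0.0257.

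**Figure D4:**
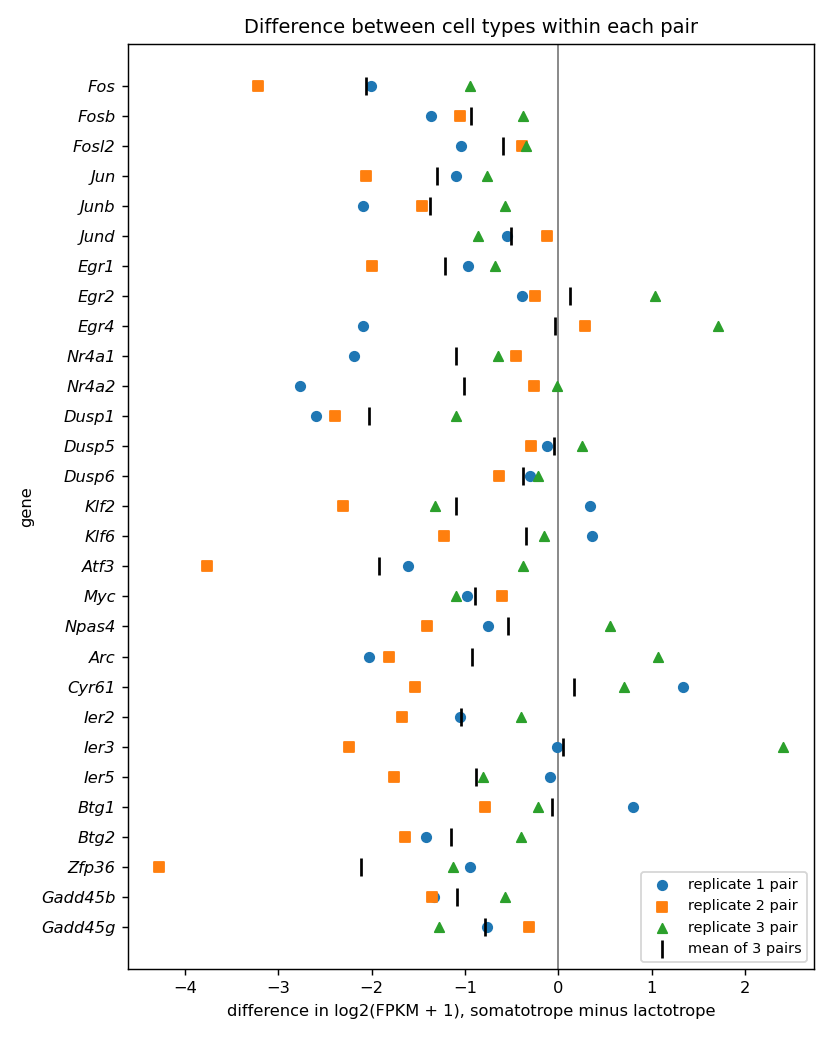
Difference in log2(FPKM + 1), somatotrope minus lactotrope, of the 29 tested immediate early genes within each replicate pair (symbols) and its mean over the 3 pairs (black bar). In 19 of the 29 genes all 3 symbols lie left of 0, where the lactotrope is higher, and in none do all 3 lie right of 0.

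Levels of most members also followed the replicate number, which the 2 cell types share. In 21 of 29 members (72.4%) replicate 3 was the highest library in both cell types, against 2.17% of all genes tested, and over all 34 symbols with no filter it was 22, against 1.48% of genes. Replicate 1 was highest in both cell types in 63.1% of all genes (28% after median-ratio scaling) and in 1 member, Fosl2. Under median-ratio scaling replicate 3 was highest in both cell types in 22 of 29 members and in 12.2% of all genes. Somatotrope 3 exceeded somatotrope 1 by 35.3-fold for Fos, 35.4-fold for Dusp5, 36.6-fold for Arc, 12.9-fold for Dusp1 and 12.1-fold for Ier2. Lactotrope 3 exceeded lactotrope 1 by 15.4-fold, 17.3-fold, 2.57-fold, 4.37-fold and 7.44-fold for the same genes. Of the FPKM sum, the 34 genes made up 0.103%, 0.161% and 0.775% in the somatotropes, and 0.217%, 0.562% and 0.954% in the lactotropes.

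An F test over the 3 replicate numbers, with the cell type in the model, called 21 of 29 members at an adjusted p of 0.05 by limma, against 46.7% of all genes tested, and 23 at an unadjusted p under 0.05, against 58.3%. After median-ratio scaling it called 22 members and 9.09% of all genes, so the background share depended on the scaling while the members' count moved by 1. It called 10 of 29 members and 2109 of 11642 genes at a pseudocount of 0.1 FPKM. With no filter on low values it called 2 of 29 members and 1269 of 19557 genes, so there the members were near the share of all genes. The smallest adjusted p among members was 0.00379, that of Fos, and Ier2 (0.00418), Atf3 (0.00603) and Dusp1 (0.00611) followed. The members that did not pass were Egr4, Nr4a1, Nr4a2, Klf6, Myc, Ier3, Btg1 and Btg2. Without somatotrope 1 the test called 0 members and 13 genes, and without lactotrope 1 it called 3 members and 180 genes, fits with 1 residual degree of freedom. The sources used do not say whether a number marks a day, a litter or a sort.

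**Figure D5:**
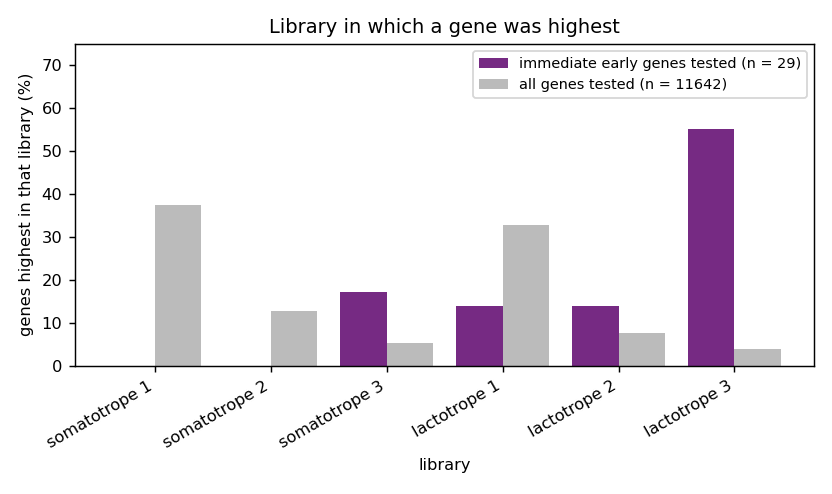
Percentage of the 29 tested immediate early genes (purple) and of all 11642 genes tested (grey) whose level was highest in each of the 6 libraries. Lactotrope 3 was the highest library for 55.2% of the immediate early genes and for 3.98% of all genes, and somatotrope 1 for 0% and 37.5%.

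Markers of other cells differed between the replicate numbers as well. All 5 erythroid markers were highest in replicate 3 of both cell types (2.17% of all genes tested). The summed erythroid markers were at 29.5, 86.8 and 4259 FPKM for somatotropes and 5.33, 325 and 3529 FPKM for lactotropes, led by Hba-a1 and Hba-a2. The rows of Hba-a1 and Hba-a2 span nearly the same mm9 bases, as do those of Hbb-b1 and Hbb-b2. The sum therefore counts the same reads more than once, and the 5 markers are not 5 separate loci. The leukocyte sum, in contrast, was highest in replicate 2 of both cell types. Single leukocyte markers were all highest in lactotrope 2 among lactotropes. Among somatotropes Tyrobp, Lyz2 and Itgam were highest in replicate 3 (107, 228 and 2.93 FPKM, against 69.7, 195 and 2.09 FPKM in replicate 2). The other leukocyte markers were highest in somatotrope 2. The gonadotrope sum, mostly Lhb and Fshb, was at 7.89, 11.8 and 104 FPKM for somatotropes and 13.6, 7.85 and 18.7 FPKM for lactotropes. It was also highest in replicate 3 of both cell types, but of the 3 markers tested only Lhb had that order. Among lactotropes Fshb was highest in lactotrope 1 (4.91 FPKM, against 2.90 FPKM in lactotrope 3). The thyrotrope sum was highest in replicate 1 of both cell types, and the fibroblast and mural sum in somatotrope 3 and lactotrope 1. Tshb itself, however, was higher in somatotrope 3 (52.4 FPKM) than in somatotrope 1 (44.5 FPKM). The corticotrope and melanotrope sum, which is nearly all Pomc, was highest in somatotrope 3 (5778 FPKM) and lowest in somatotrope 1 (95.9 FPKM). The part of these cells in the members' levels was not tested.

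Genes that act upstream of the members were described in the same way. Of 32 kinases and factors listed, 31 were found and 27 tested, with a median difference of 0.16, close to that of all genes. In all 3 pairs 4 of the 27 were higher in lactotropes (11.2% of all genes) and 8 in somatotropes (22.9%). Replicate 3 was highest in both cell types in 0 (2.17% of all genes). None passed limma's test, and 0 had an unadjusted p under 0.05. With the block, 1 higher in lactotropes (background 3.75%) and 0 higher in somatotropes (background 7.17%) had an unadjusted p under 0.05 by limma. Rps6ka2, a kinase downstream of ERK, was at 5.84, 0.939 and 0.815 FPKM in the somatotrope libraries and 19.8, 2.80 and 3.36 FPKM in the lactotrope libraries, a difference of -1.28 (SE 0.86). Map2k1, which activates ERK, was at 32.8, 32.2 and 24.9 FPKM in the somatotrope libraries and 32.1, 23.5 and 4.27 FPKM in the lactotrope libraries, a difference of 0.92 (SE 0.70). Elk3 and Srf, a ternary complex factor and the serum response factor, had differences of -0.68 (SE 0.70) and 0.66 (SE 0.69). That of Srf rested on pair 3 (1.84, against 0.09 and 0.04 in pairs 1 and 2), where lactotrope 3 was at 0.097 FPKM.

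Other stimulus-induced genes, a list of feedback regulators, heat shock genes and delayed targets, lay mostly in the same direction as the members. The list was chosen with earlier results of these data known, and the 4 genes named below had its smallest p without the block. Of 38 genes 31 were tested, with a median difference of -0.59. In all 3 pairs 16 of the 31 were higher in lactotropes (11.2% of all genes) and 4 in somatotropes (22.9%). Replicate 3 was highest in both cell types in 12 (2.17% of all genes). None passed limma's test, and 0 had an unadjusted p under 0.05. With the block, 9 higher in lactotropes (background 3.75%) and 1 higher in somatotropes (background 7.17%) had an unadjusted p under 0.05 by limma. Rgs2, which dampens G protein signalling, was at 9.01, 10.4 and 46.4 FPKM in the somatotrope libraries and 28.0, 50.7 and 61.4 FPKM in the lactotrope libraries, a difference of -1.37 (SE 0.68). Rgs1, its relative known from lymphocytes and other leukocytes, was at 0.386, 2.54 and 25.6 FPKM in the somatotrope libraries and 2.30, 35.3 and 66.8 FPKM in the lactotrope libraries, a difference of -1.99 (SE 1.16). Hspa1a and Hspa1b, near-identical heat shock genes whose reads may be split between them, had differences of -1.47 (SE 0.85) and -1.49 (SE 0.84).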

How the data were processed

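RNA came from sorted pituitary cells, with 3 libraries per cell type. Per the labels' protocols, RNA was isolated with Trizol LS and amplified by NuGen Ovation V2, so levels passed through an amplification step. Per the submitters' processing notes, the tools were bcl2fastq 2.17.1.14, TopHat and edgeR, and the build was mm9. The sources used do not state how fragments were counted. The deposited data are a single table of FPKM with 30399 rows, computed by the authors, whose columns were matched to samples by description. FPKM are not counts, and no count model was fitted.

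The 889 rows with no symbol were dropped, and a symbol with several rows kept the row of highest mean over the 6 libraries. Levels were tested as log2(FPKM + 1) using limma 3.58.1 (R 4.3.3, intensity trend), for the 11642 genes that averaged 1 FPKM or more, with Benjamini-Hochberg adjustment over all of them. Deviations from the group means correlated over genes at 0.763, 0.613 and 0.341 between same-numbered libraries of replicates 1 to 3, which, together with the numbers in the titles, is the basis of the replicate block. Between libraries of different numbers the correlations ran from -0.631 to 0.233. The 0.233, of somatotrope 3 with lactotrope 2, was not far below the 0.341 of replicate 3. Library values were compared pairwise for duplicates, and at most 2.35% of genes lay within 1% of each other. The scripts were tested on simulated data. The members and gene lists were chosen with earlier results of these data known. All 34 members are named, and of the upstream and the other induced genes the 4 with the smallest p each. Marker lists of 10 cell types were read. Alternatives were another pseudocount, other filters and scalings, summed rows, no trend, array weights, the replicate block and leaving out libraries, and those for the count over pairs were chosen after seeing the data. Fragment depth could be estimated for 2 libraries, from 197 low values in somatotrope 1 and 23 in lactotrope 1. It was taken as the lowest total searched that put these values within 0.1 of a whole fragment. All of them did, but this was the criterion of the search and no separate check, and a whole multiple of the total would also meet it.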

Additional observations from a re-analysis of the deposited data

How the results depend on the processing

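The members' median difference kept its sign in all 19 alternatives run, the lowest and highest medians being -1.45 and -0.55, both with a library left out. The count of members called stayed at 0 in all of these except the blocked fit with array weights, which called 2 members and 43 genes. Array weights alone called 9 genes, and leaving out a library called 0 to 3 genes and 0 members. The replicate block changed no call of a member, with 0 members and 0 genes called and a median of -0.93. The count of members higher in lactotropes in all 3 pairs was 18 to 20 under 3 other scalings. The test over replicate numbers called 5433 genes and 21 members, with 2109 genes and 10 members at a pseudocount of 0.1 FPKM, 1269 and 2 with no filter, 3293 genes at 5 FPKM (fewer genes tested), 1058 under median-ratio scaling, 1967 under quantile normalization and 2610 rescaled without Gh and Prl. With a library left out it called 13 to 8528 genes and 0 to 26 members. The cause of these moves was not tested.

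Among single members, the differences that changed sign are given here as log2 values, and none had passed the test. With a pseudocount of 0.1 FPKM the sign turned for Egr4 (0.74). Under median-ratio scaling the sign turned for Egr2 (-0.0300), Egr4 (0.19) and Cyr61 (-0.0591). Under quantile normalization the sign turned for Ier3 (-0.24). After rescaling without Gh and Prl the sign turned for Egr4 (0.0905). With array weights the sign turned for Egr4 (0.70), Nr4a2 (0.0173), Dusp5 (0.18), Cyr61 (-0.36), Ier3 (-1.22) and Gadd45g (0.0198). With the replicate block and array weights the sign turned for Egr2 (-0.13), Cyr61 (-0.00998) and Ier3 (-0.66). With the replicate block and median-ratio scaling the sign turned for Egr2 (-0.0300), Egr4 (0.19) and Cyr61 (-0.0591). With replicates 2 and 3 only the sign turned for Egr4 (1.00) and Cyr61 (-0.41). With 1 library left out the range spanned 0 for Egr4 -0.52 to 0.77, Dusp5 -0.74 to 0.48, Npas4 -1.52 to 0.16, Btg1 -0.31 to 0.16, Egr2 -0.82 to 0.92, Cyr61 -0.71 to 0.82, Ier3 -0.58 to 0.73, Fosl2 -1.15 to 0.17 and Dusp6 -0.76 to 0.11. Such fits kept the other library of the same number, and Fosl2 and Dusp6 were higher in lactotropes within each pair. A median-ratio scaling moved the median difference of all genes from 0.18 to 0.05 and quantile normalization to 0.004. With 3 libraries per cell type, differences within the spread of the replicate numbers were not detectable without the block, and for 4 of the 6 libraries the depth behind low values is unknown.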
